A study of Homo sapiens with 8 samples.

Results

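The genes described here are the dual-specificity phosphatase (DUSP), Sprouty (SPRY) and SPRED genes, which include the feedback brakes on mitogen-activated protein kinase (MAPK) signalling. They were chosen by name, as every array probe set with a single annotated symbol of the form DUSP plus a number, SPRY1 to SPRY4 or SPRED1 to SPRED3, and they numbered 32 of the 18417 genes tested. Of these, 10 are MAPK phosphatases, 14 are atypical DUSPs, 1 is a DUSP pseudogene (DUSP5P1), 4 are Sprouty genes and 3 are SPRED genes. The cells were U2OS, an established human osteosarcoma line. Of 8 cultures, 4 were given siRNA against CDK9, the kinase that releases paused RNA polymerase II into elongation, and 4 were given a non-targeting siRNA. Both siRNAs were used at 10 nM, and RNA was taken after 72 h and hybridised to Affymetrix human gene arrays, 1 per culture. Each control culture was thus also transfected, and no untransfected culture was part of the comparison.

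MAPK cascades carry signals from growth factor receptors and stress to the nucleus through the kinases ERK, JNK and p38. The MAPK phosphatases remove phosphate from both the threonine and the tyrosine of the activation loop of these kinases and so switch them off. Several of them are made only after the cascade has fired, which closes a negative feedback loop. Atypical DUSPs share the catalytic domain but lack the MAPK-docking domain, and their substrates include kinases, other proteins and RNA. Sprouty and SPRED proteins act higher up, between receptor tyrosine kinases and RAF. SPRED proteins bring the RAS inactivator neurofibromin to the membrane.

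Of the 32 members, 4 fell and 2 rose under CDK9 siRNA. The falls were those of DUSP3, DUSP18, DUSP14 and DUSP6, and the rises those of DUSP19 and SPRY4. "Fell" and "rose" are used for genes with a Benjamini-Hochberg adjusted p under 0.05 in limma over all 18417 genes, and such genes are said to be called. The share of members called was 18.8%, against 14.2% of all genes tested, so the count lies near the background. By direction, 7.47% of all genes were called lower and 6.73% higher. The members' median log2 difference was -0.07, and that of all genes was 0.00. Of the members, 23 had a negative and 9 a positive difference, whether called or not. Over all genes, 9299 were negative and 9118 positive. The members' median was 0.04 in the replicate 1 arrays and -0.10 in replicates 2 to 4, so the negative lean was not seen in both. The widest change, that of DUSP3, left 66.1% of the control signal.

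**Figure D1:**
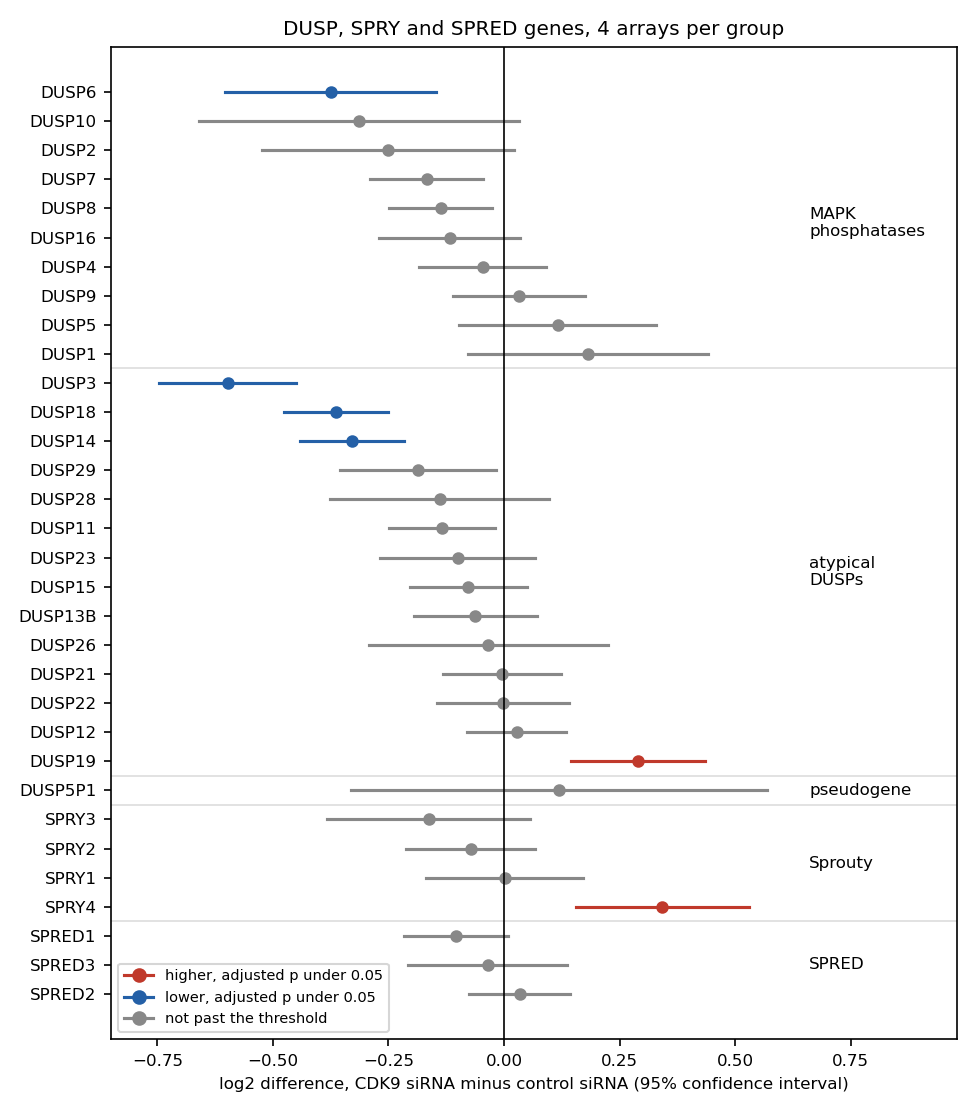
Log2 difference (CDK9 siRNA minus control siRNA) of each of the 32 genes, grouped by class, with 95% confidence intervals from the limma fit over 4 arrays per group. DUSP3 lies farthest to the left at -0.60, SPRY4 farthest to the right at 0.34, and 26 of the 32 genes did not pass the threshold.

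The DNA just before the transcription start is shown for the 6 called genes, and for DUSP1 and DUSP2, whose differences disagreed between array sets, so that the changes can be read beside the proximal promoters. Each line holds the 150 bases that end at the base before a RefSeq start, 5′ to 3′ on the gene's strand, from the RefSeq promoter table of GRCh38.p14. Some members have more than 1 start (43 windows for 27 members), and 1 window is shown per gene. Motif counts and GC contents of single genes are those of the window shown. The stretches are chr17:43778978-43779127 (minus strand) for DUSP3, chr17:37489741-37489890 (plus) for DUSP14, chr22:30667876-30668025 (minus) for DUSP18, chr12:89352502-89352651 (minus) for DUSP6, chr2:183078597-183078746 (plus) for DUSP19, chr5:142324248-142324397 (minus) for SPRY4, chr5:172771196-172771345 (minus) for DUSP1 and chr2:96145441-96145590 (minus) for DUSP2. Capitals mark matches, on either strand, to a GC box (GGGCGG), a cyclic AMP response element (CRE, TGACGTCA), a CCAAT box (CCAAT) or a TATA box (TATAAA).
DUSP3: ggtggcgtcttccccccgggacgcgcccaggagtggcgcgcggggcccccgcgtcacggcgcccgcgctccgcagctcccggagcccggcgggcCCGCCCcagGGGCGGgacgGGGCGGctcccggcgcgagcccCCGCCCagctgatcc
DUSP14: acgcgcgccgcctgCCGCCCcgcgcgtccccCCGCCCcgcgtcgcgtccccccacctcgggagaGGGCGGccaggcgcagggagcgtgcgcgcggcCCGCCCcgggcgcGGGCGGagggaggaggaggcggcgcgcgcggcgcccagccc
DUSP18: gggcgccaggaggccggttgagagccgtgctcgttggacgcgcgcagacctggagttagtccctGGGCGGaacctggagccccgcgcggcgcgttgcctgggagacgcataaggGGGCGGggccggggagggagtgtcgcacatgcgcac
DUSP6: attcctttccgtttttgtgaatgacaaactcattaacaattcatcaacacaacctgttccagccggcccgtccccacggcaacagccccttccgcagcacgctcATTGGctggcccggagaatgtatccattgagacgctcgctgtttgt
DUSP19: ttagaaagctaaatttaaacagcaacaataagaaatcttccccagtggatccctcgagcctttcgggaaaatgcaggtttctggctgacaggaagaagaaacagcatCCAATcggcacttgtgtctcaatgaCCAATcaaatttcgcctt
SPRY4: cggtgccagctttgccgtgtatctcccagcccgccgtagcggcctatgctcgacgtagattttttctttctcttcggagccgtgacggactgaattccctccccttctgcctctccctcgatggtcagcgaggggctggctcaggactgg
DUSP1: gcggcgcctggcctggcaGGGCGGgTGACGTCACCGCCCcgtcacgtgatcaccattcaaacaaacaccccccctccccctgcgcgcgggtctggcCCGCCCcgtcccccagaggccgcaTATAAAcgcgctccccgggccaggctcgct
DUSP2: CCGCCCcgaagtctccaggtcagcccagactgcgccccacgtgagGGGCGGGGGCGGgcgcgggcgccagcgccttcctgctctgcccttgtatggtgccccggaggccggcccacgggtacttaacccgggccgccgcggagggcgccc

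Among these 8 stretches, GC boxes stood in DUSP3 (4), DUSP14 (5), DUSP18 (2), DUSP1 (3) and DUSP2 (3). The first 3 of these, the atypical DUSPs that fell, had GC contents of 85.3% for DUSP3, 88.0% for DUSP14 and 72.7% for DUSP18. DUSP1 and DUSP2, which were not called, had GC contents of 72.7% and 77.3%. DUSP6 and DUSP19 had CCAAT boxes (1 and 2) and no GC box, with GC contents of 52.0% and 42.7%. SPRY4 had none of the 4 motifs and a GC content of 60.7%. GC boxes are common: 18 of the 27 members with an entry (66.7%) and 40.7% of all genes in the table had 1 or more. Counted by window, 36.8% of all 35116 windows of this length held 1, as did 21 of the 43 windows of the members. DUSP1 held a CRE, beginning 125 bases before the start, and a TATA box, beginning 30 bases before it. A CRE stood in 1.40% of all windows and in those of 2 members, DUSP1 and DUSP8. TATA boxes were found in 6.71% of all windows and CCAAT boxes in 23.5%. A match of letters is a description of the window, not a measured binding site. DUSP4, DUSP5, DUSP12, DUSP26 and DUSP5P1 had no entry.

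Replicate 1 of both groups lay on a lower scale than the rest, with array medians of 5.85 and 5.80 against 6.99 to 7.04, and is called array set 1. Replicates 2 to 4 are array set 2, and the fit kept the sets apart. Nothing in the labels says how the sets differ in culture or handling. Levels are therefore compared only within a set, and levels of different genes are not compared, because probe sets differ in brightness. The CDK9 probe set gave 8.0, 9.03, 9.09 and 9.04 after CDK9 siRNA and 9.80, 10.86, 10.89 and 10.86 after control siRNA (replicates 1 to 4, as in all such series of values), which left 28.4% of its signal (95% confidence interval 26.4 to 30.5%). Of 8 osteoblast lineage markers tested, 6 were above the lowest 30% of gene means (under 6.14, called dim here), among them RUNX2, SP7, SPARC and COL1A1. ALPL and IBSP were dim. Of the other cell types' markers, PTPRC, CD3E, CD14 and HBB of blood cells were all dim, as were EPCAM, CDH1 and KRT5 of the 5 epithelial markers. The remaining epithelial markers, KRT19 and CLDN4, were not dim (mean log2 6.55 and 6.82). RUNX2 (-0.60) and COL1A1 (-0.51) fell, and SPP1 (1.5) and the dim EPCAM (0.32) rose. Their part in the members' differences was not tested. In a bulk RNA sample, fewer cells making a transcript and less of it in each cell cannot be told apart.

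Among the 10 MAPK phosphatases, 1 fell and none rose, a share of 10.0% beside 14.2% of all genes. Their median difference was -0.13. DUSP6, the cytoplasmic phosphatase selective for ERK, was the member that fell. Its values were 4.67, 5.26, 5.46 and 5.65 under CDK9 siRNA and 5.36, 5.64, 5.80 and 5.73 in the controls. The fourth CDK9 siRNA array lay just above the lowest control of array set 2, so the groups overlapped there. This amounted to a log2 difference of -0.37 ± 0.10 (SE, n = 4 per group, limma adjusted p = 0.0380), or 77.1% of control (95% confidence interval 65.8 to 90.3%). Set 1 gave -0.69 and set 2 gave -0.27, and the gene was dim. The call was not kept when numbered arrays were paired as blocks (adjusted p = 0.0521), nor within array set 2 (0.104, also the value without replicate 1 of either group). Leaving out CDK9 siRNA replicate 2 (0.10) or 3 (0.0764) ended it as well, as did leaving out control replicate 3 (0.0979) or 4 (0.0773).

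The other cytoplasmic phosphatases selective for ERK, DUSP7 and DUSP9, did not pass. DUSP7 read 8.13, 8.61, 8.69 and 8.78 under CDK9 siRNA against 8.24, 8.90, 8.90 and 8.85 in the controls. It was lower in every numbered pair and did not overlap in array set 2, yet the difference was small (-0.17 ± 0.05, adjusted p = 0.0738 in limma). DUSP9 read 7.32, 8.14, 8.24 and 8.26 against 7.18, 8.19, 8.13 and 8.34, with a difference of 0.03 and a 95% confidence interval of -0.11 to 0.18. Its groups overlapped in array set 2.

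The nuclear, inducible phosphatases DUSP1, DUSP2, DUSP4 and DUSP5, which are made as early response genes after stimulation, moved in no common direction. DUSP1 read 11.89, 11.98 and 12.04 in the CDK9 siRNA arrays of array set 2 and 11.56, 11.60 and 11.66 in its controls. In array set 1 the order was the opposite, with 10.33 under CDK9 siRNA and 10.69 in the control. The differences were thus 0.36 in set 2 and -0.36 in set 1, and the pooled value of 0.18 did not pass (adjusted p = 0.352), although set 2 alone did (adjusted p = 0.00604). DUSP2 showed the reverse arrangement. It read 8.34, 8.21 and 8.31 against 8.82, 8.68 and 8.68 in array set 2, and 7.21 against 6.90 in array set 1. Its differences were -0.44 in set 2 and 0.31 in set 1, with a pooled value of -0.25 (adjusted p = 0.216, and 0.00378 in set 2 alone). In both genes the groups did not overlap in array set 2.

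For DUSP1 and DUSP2 the difference between the sets itself passed the test. The set 1 difference minus the set 2 difference was -0.72 ± 0.11 for DUSP1 (SE, limma interaction, adjusted p = 0.0305) and 0.75 ± 0.12 for DUSP2 (adjusted p = 0.0325). These were 2 of the 32 members, against 2.14% of all genes. Array set 1 holds 1 array of each group, so its difference has no replicate of its own. What sets the pair apart was not tested.

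**Figure D2:**
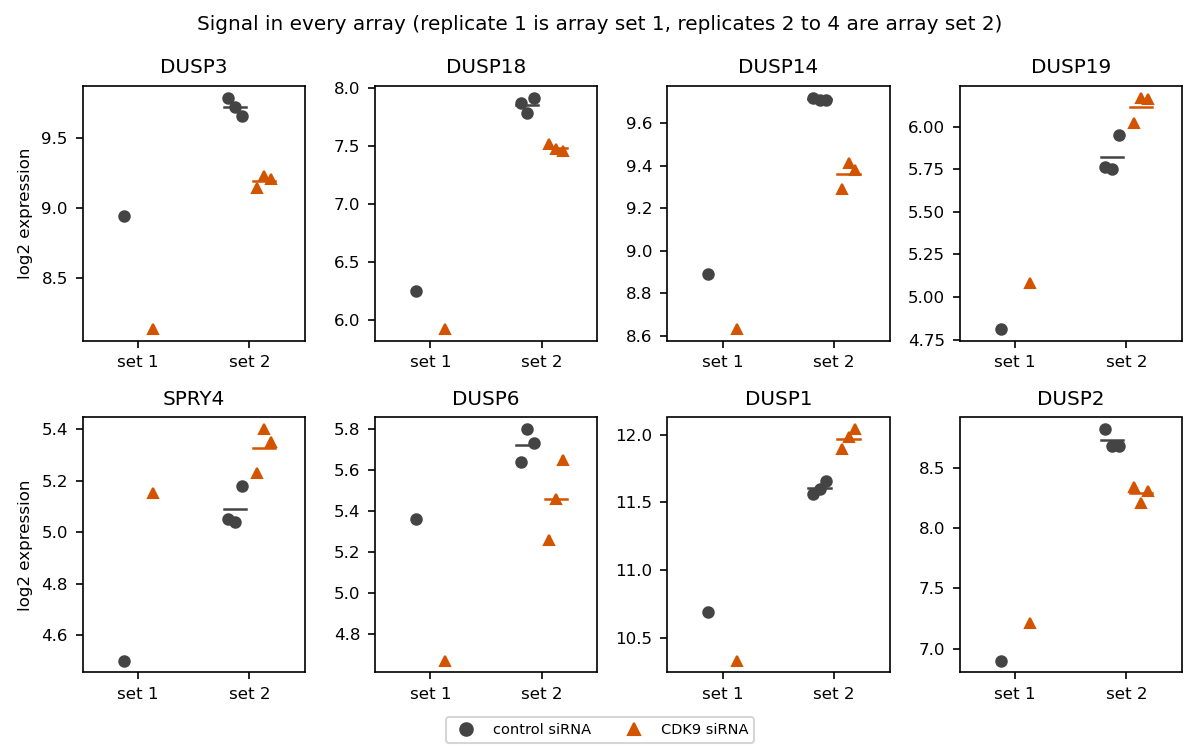
Log2 expression in every array for the 6 called genes and for DUSP1 and DUSP2 (circles, control siRNA; triangles, CDK9 siRNA; bars, means of the 3 arrays of array set 2). DUSP3, DUSP18 and DUSP14 are lower under CDK9 siRNA in both sets without overlap in set 2, while DUSP1 and DUSP2 change order between the sets.

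DUSP4 and DUSP5 act in the nucleus, DUSP5 on ERK alone. DUSP4 was dim and read 5.18, 5.30, 5.41 and 5.30 against 5.04, 5.47, 5.46 and 5.41, a difference of -0.05 (adjusted p = 0.685). DUSP5 read 7.62, 9.07, 8.85 and 9.02 against 7.11, 8.95, 9.03 and 8.99, a difference of 0.12 (adjusted p = 0.486). The DUSP5 value came from array set 1, at 0.50, while set 2 gave -0.01 with overlapping groups.

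The phosphatases that act chiefly on JNK and p38 are DUSP8, DUSP10 and DUSP16, and none passed. DUSP10 read 5.99 under CDK9 siRNA and 7.0 in the control in array set 1, but 8.27, 8.45 and 8.31 against 8.28, 8.61 and 8.38 in array set 2. Its pooled difference of -0.31 ± 0.15 (adjusted p = 0.224) therefore joined -1.01 in set 1 and -0.08 in set 2, where the groups overlapped. The set 1 minus set 2 value of -0.93 did not pass (adjusted p = 0.0514), but did so after median centring of the arrays (adjusted p = 0.0371), with dim genes left out (0.0194) and with a trended robust variance (0.00123). DUSP16 read 8.40, 9.49, 9.61 and 9.46 against 8.73, 9.53, 9.54 and 9.62, a difference of -0.12 (adjusted p = 0.301). DUSP8 read 7.08, 8.25, 8.15 and 8.17 against 7.18, 8.35, 8.37 and 8.29. It was lower in all 4 numbered pairs and did not overlap in array set 2, with a difference of -0.14 ± 0.05 (adjusted p = 0.104).

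Of the 14 atypical DUSPs, 3 fell and 1 rose, a share of 28.6% beside 14.2% of all genes, and their median difference was -0.09. DUSP3, also known as VHR, is a small phosphatase that can act on ERK and JNK and on tyrosine-phosphorylated proteins. It read 8.13, 9.14, 9.23 and 9.21 in the CDK9 siRNA arrays and 8.94, 9.79, 9.72 and 9.66 in the controls. Every CDK9 siRNA array was below the controls of its set. This amounted to a log2 difference of -0.60 ± 0.07 (SE, n = 4 per group, limma adjusted p = 0.000666), or 66.1% of control (95% confidence interval 59.6 to 73.2%). Set 1 gave -0.81 and set 2 gave -0.53.

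DUSP18, a phosphatase found in mitochondria, read 5.92, 7.52, 7.48 and 7.46 against 6.25, 7.87, 7.79 and 7.92. The groups did not overlap in array set 2, and the single CDK9 siRNA array of set 1 was below its control. That pattern, in either direction, was found in 25.3% of all genes. The fall was -0.36 ± 0.05 (SE, n = 4 per group, limma adjusted p = 0.00198), or 77.8% of control, and was -0.34 in set 1 and -0.37 in set 2. DUSP14, which dampens T cell receptor signalling in lymphocytes, read 8.63, 9.29, 9.41 and 9.38 against 8.89, 9.72, 9.71 and 9.71. Again the groups did not overlap in array set 2, and the single CDK9 siRNA array of set 1 was below its control. The difference was -0.33 ± 0.05 (SE, n = 4 per group, limma adjusted p = 0.00302), or 79.6% of control, with -0.26 in set 1 and -0.35 in set 2. The calls of DUSP3, DUSP18 and DUSP14 were kept without each of the 8 arrays in turn, with the highest adjusted p at 0.00361, 0.0100 and 0.0155. Pairing the numbered arrays as blocks kept them too (0.00566, 0.0116 and 0.0166).

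DUSP19, which binds kinases of the JNK cascade, was the atypical member that rose. It was dim and read 5.08, 6.02, 6.17 and 6.16 against 4.81, 5.76, 5.75 and 5.95. Every CDK9 siRNA array was above the controls of its set. The difference was 0.29 ± 0.06 (SE, n = 4 per group, limma adjusted p = 0.0168), or 1.22-fold, and was 0.27 in set 1 and 0.30 in set 2. The call was lost without CDK9 siRNA replicate 3 (adjusted p = 0.0556), control replicate 2 (0.0545) or control replicate 3 (0.0612).

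The other 10 atypical DUSPs did not pass, with differences from -0.19 (DUSP29) to 0.03 (DUSP12). Of these, 9 were negative. DUSP29, known from muscle, read 6.39, 6.36 and 6.44 against 6.71, 6.63 and 6.72 in array set 2, and 6.03 against 5.91 in array set 1. It passed in array set 2 alone (-0.29, adjusted p = 0.00848) and not with both sets (adjusted p = 0.140). DUSP11, which removes phosphate from the 5′ end of RNA, differed by -0.13 and was lower than every control of its set (adjusted p = 0.122). DUSP28 (-0.14), DUSP23 (-0.10), DUSP15 (-0.08) and DUSP13B (-0.06) had confidence intervals that included 0. So did DUSP26 (-0.03), and DUSP21 and DUSP22, whose differences were both 0.00. DUSP21 and DUSP26 were dim. The pseudogene DUSP5P1 was dim and differed by 0.12 (95% confidence interval -0.33 to 0.57), and its second probe set by 0.00.

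Of the 4 Sprouty genes, 1 rose and none fell, where 14.2% of all genes were called. SPRY4, an inhibitor of receptor tyrosine kinase signalling to ERK, read 5.15, 5.23, 5.40 and 5.35 under CDK9 siRNA and 4.50, 5.05, 5.04 and 5.18 in the controls. Every CDK9 siRNA array was above the controls of its set, though the lowest in array set 2 exceeded the highest control by little. The difference was 0.34 ± 0.08 (SE, n = 4 per group, limma adjusted p = 0.0251), or 1.27-fold (95% confidence interval 111 to 144% of control). It was 0.65 in set 1 and 0.24 in set 2, and the gene was dim. The call was lost when numbered arrays were paired as blocks (adjusted p = 0.0569), and without CDK9 siRNA replicate 3 (0.0712), control replicate 2 (0.0597) or control replicate 3 (0.0684).

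SPRY2, which binds the ubiquitin ligase CBL, read 5.28, 6.65, 6.66 and 6.75 against 5.17, 6.80, 6.89 and 6.77. It was slightly lower in set 2 and slightly higher in set 1, with a pooled difference of -0.07 (95% confidence interval -0.21 to 0.07). SPRY1 read 5.6, 7.0, 6.78 and 6.69 against 5.51, 6.87, 6.92 and 6.76, a difference of 0.00 (-0.17 to 0.17). SPRY3 was dim, read 4.88, 6.03, 6.12 and 6.14 against 5.19, 6.46, 6.19 and 5.98, and differed by -0.16 (-0.38 to 0.06). Its second probe set held the same value in all 8 arrays and adds no evidence.

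The SPRED genes did not pass, 0 of 3 in limma beside 14.2% of all genes, and none had an unadjusted p under 0.05. SPRED1, whose loss of function causes a syndrome of overactive RAS signalling, read 8.94, 9.83, 9.89 and 9.94 against 9.04, 9.99, 9.95 and 10.04. It was lower in each numbered pair, by a small amount (-0.10 ± 0.05, adjusted p = 0.216). SPRED2 read 8.30, 9.55, 9.47 and 9.56 against 8.21, 9.51, 9.49 and 9.54, a difference of 0.03. SPRED3 read 6.27, 7.34, 7.15 and 7.34 against 6.04, 7.43, 7.37 and 7.4, a difference of -0.04. Neither interval excluded 0, and both lay within -0.21 and 0.14.

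Across all 32 members, 9 had groups that did not overlap in array set 2 and a difference of the same sign in array set 1, beside 25.3% of all genes. These were DUSP3, DUSP18, DUSP14, DUSP19 and SPRY4, all called, and DUSP7, DUSP8, DUSP11 and SPRED1, which were not. In array set 2 alone 8 members were called, beside 18.1% of all genes, and pairing numbered arrays as blocks called 4, beside 9.17%. The 4 were DUSP3, DUSP18, DUSP14 and DUSP19. The member count was 3 without CDK9 siRNA replicate 3 or control replicate 3, and no member was called higher (0) without either of these or control replicate 2. Of the 24 members that were not dim, 3 were called (12.5%, beside 18.5% of all genes that were not dim), and of the 8 dim members 3 were (beside 4.11% of dim genes).

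**Figure D3:**
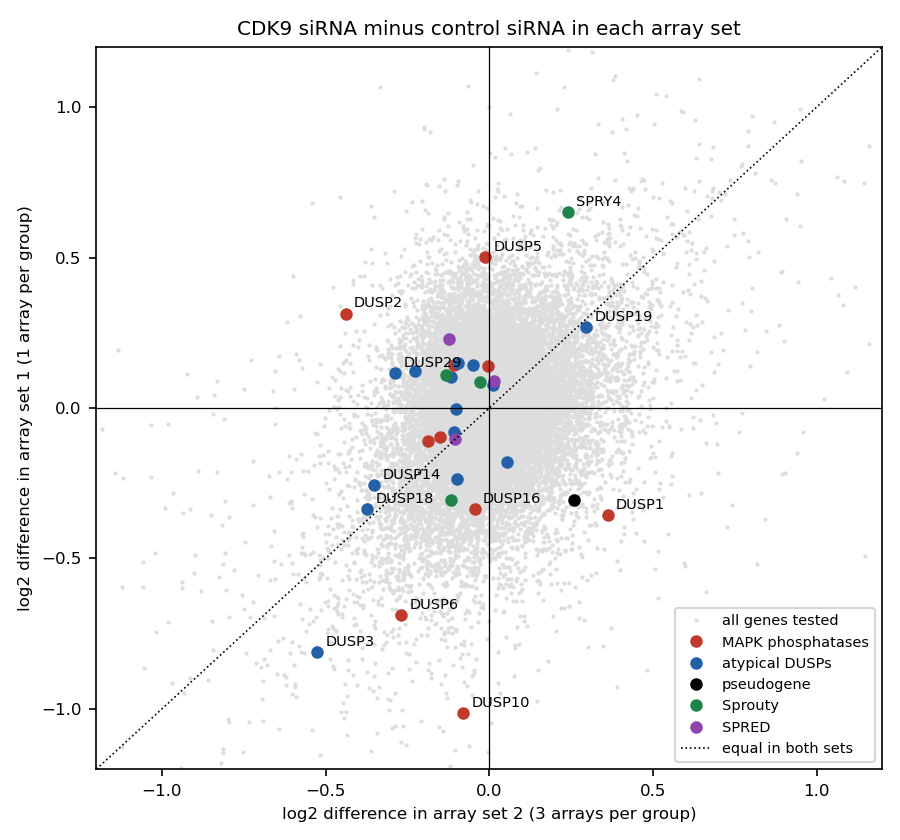
Log2 difference in array set 2 (3 arrays per group, horizontal axis) and in array set 1 (1 array per group, vertical axis) for all genes tested (grey, those within the axes) and the 32 members (coloured by class). DUSP18, DUSP14 and DUSP19 lie near the dotted line of equal differences, DUSP3 lies at -0.53 in set 2 and -0.81 in set 1, DUSP1 at 0.36 and -0.36 and DUSP2 at -0.44 and 0.31 lie in opposite quadrants, and DUSP10 lies at -1.01 in set 1 alone.

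The wider MAPK pathway was described with 6 lists chosen with earlier results known, of which 81 genes were tested, and 22 of them (27.2%) were called, beside 14.2% of all genes and 18.5% of genes that were not dim. Of the 81, 8 were dim. Of the 22, 14 kept their calls without each array in turn, with numbered arrays paired and within array set 2. The count of 22 was 14 without control replicate 2 or 3. In the RAS-ERK core, 1 of 15 tested genes rose and 2 fell (median -0.07). MAPK3, which encodes the kinase ERK1 that DUSP3, DUSP6 and DUSP7 act on, fell to 62.5% of control (-0.68 ± 0.05, SE, n = 4 per group, adjusted p = 0.000143). The docking protein GAB1 fell by 0.47 (adjusted p = 0.0109), and RPS6KA2, a kinase downstream of ERK, rose by 0.20 with a call that was lost in 6 of the 8 fits that left out an array and when numbered arrays were paired (adjusted p = 0.102). The other 6 genes of the 21 in that list were not analysed here. SHC1 had the smallest p of the genes that did not pass (-0.14, adjusted p = 0.128).

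Of 14 receptor tyrosine kinases, whose signals Sprouty and SPRED proteins dampen, 2 rose and 3 fell (median -0.05), a share of 35.7%. Over all genes that share was 14.2%, and over genes that were not dim 18.5%. EGFR, the epidermal growth factor receptor, fell by 0.56 (adjusted p = 0.00578) and PDGFRA by 0.29 (dim, adjusted p = 0.00954). The rises of MET (0.28) and PDGFRB (0.31) and the fall of FGFR1 (-0.20) were lost when numbered arrays were paired (adjusted p = 0.0503, 0.0779 and 0.0940). In that order, set 1 gave 0.07, 0.01 and -0.05, and set 2 gave 0.35, 0.42 and -0.25. Of the 8 fits that left out an array, 5, 2 and 2 kept these calls. ERBB2 differed by -0.19 (adjusted p = 0.160). In the JNK, p38 and ERK5 modules 2 of 21 rose and 1 fell (median 0.03), a share of 14.3% beside 14.2% of all genes. MAPK9, which encodes a JNK, rose 1.37-fold (0.45, adjusted p = 0.00456), and MAP3K4, a kinase upstream of p38 and JNK, fell by 0.29 (adjusted p = 0.00694). MAP3K2 rose by 0.28, with -0.01 in set 1 and 0.38 in set 2. Pairing the arrays did not keep its call (adjusted p = 0.0766), and 2 of the 8 fits that left out an array did. MAPK7 differed by -0.15 (adjusted p = 0.0691).

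Genes switched on by ERK, other than the members, were called in 6 of 12 cases, 2 higher and 4 lower, beside 14.2% of all genes and 18.5% of genes that were not dim. Their median was -0.05. FOS, EGR1, PHLDA1 and IER3 fell to 37.7%, 51.8%, 57.9% and 78.2% of control. The array sets differed in size for FOS, at -0.67 in set 1 and -1.66 in set 2 (limma interaction, adjusted p = 0.0355). They also differed for the uncalled ETV4, at 0.54 in set 1 and -0.11 in set 2 (limma interaction, adjusted p = 0.0317). In the other lists MAP2K6 (-0.23 and 0.40) and RASAL2 (-0.57 and 0.09), both uncalled, passed that test too. These were 4 of the 81 pathway genes, beside 2.14% of all genes. PHLDA1 gave -0.05 in set 1 and -1.03 in set 2, a difference between sets that did not pass (adjusted p = 0.0639). MYC rose 1.34-fold and the cyclin CCND1 1.15-fold, the latter with a call that none of the fits without 1 array kept. ETV5 differed by 0.10 (adjusted p = 0.336). Among 12 tested genes listed as other brakes on receptors and RAS, 1 rose and 4 fell (median -0.11). The share was 41.7%, beside the same 14.2% and 18.5%. Not every gene of that list is an established brake, TESK1 for example. CBLB, a ubiquitin ligase that acts on activated receptors, fell by 0.54 (adjusted p = 0.00307) and IL17RD, an inhibitor of fibroblast growth factor signalling, by 0.38 (adjusted p = 0.00779). LRIG1, a brake on the epidermal growth factor receptor, rose by 0.30 (adjusted p = 0.0137). ERRFI1 (-0.48, with 0.06 in set 1 and -0.66 in set 2) and TESK1 (-0.17) fell with calls lost under the replicate block (adjusted p = 0.0749 and 0.0996). RASA2 differed by 0.24 (adjusted p = 0.0596). Of 7 other MAPK phosphatases outside the DUSP family 0 were called in limma, and 1, PPM1B, had an unadjusted p under 0.05 (0.18, adjusted p = 0.0509).

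**Figure D4:**
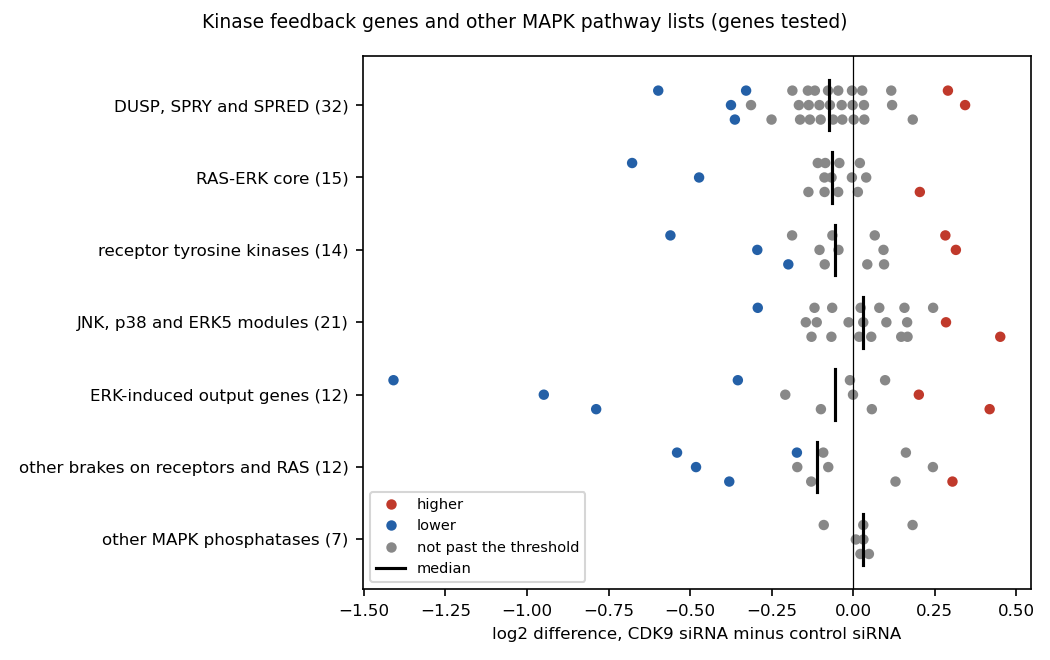
Log2 difference (CDK9 siRNA minus control siRNA) of each tested gene of the kinase feedback genes and of 6 other MAPK pathway lists, with the number tested in brackets and a bar at each median. The lists hold genes on both sides of 0, their medians lie between -0.11 and 0.03, and the widest falls are in the genes switched on by ERK.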

How the data were processed

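The deposited table held log2 expression of 33297 probe sets on 8 arrays. RMA, hg19, limma and the Affymetrix Expression Console 1.1 are named in the submitters' processing notes, with neither role nor order given in the sources used here. The platform annotation gave 1 symbol to 19460 probe sets, several to 1754 and none to 12083. Per gene, the single-symbol probe set with the highest mean was kept (18417 genes).

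Log2 values were fitted with limma 3.58.1 in R 4.3.3 (lmFit, eBayes, two-sided) with group and array set as terms, over all genes, with Benjamini-Hochberg adjustment at 0.05. Interaction and alternative fits are named where used. Tables were made with pandas 2.3.3 and numpy 2.4.6 under Python 3.11.15, and figures with matplotlib 3.10.9. The fit with array set as a term was tested on simulated arrays with known changes. It recovered 32% of 1.2-fold and 84% of 1.5-fold changes, and 11 of its 168 calls were on unchanged genes. A gene that did not pass may thus still have changed by a small amount.

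Members, classes and lists were chosen with earlier results of these data known. Full values are given for MAPK phosphatases, Sprouty, SPRED and called members, and from each pathway list for called genes and the nearest uncalled gene.

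Deviations from group means correlated at 0.822, 0.537, 0.494 and 0.607 within same-numbered pairs, above the limit of 0.1 for pairing. Array set was not removed from these deviations, and differently numbered arrays of array set 2 correlated at 0.405 to 0.561. The check therefore cannot tell whether equal numbers mark pairs. The labels call the replicates biological; 0 array pairs were mostly identical. The number of arrays limits the precision.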

Additional observations from a re-analysis of the deposited data

Results flagged for a closer look

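The CDK9 siRNA effect on DUSP1 and on DUSP2 differed between the 2 array sets in a test of that difference. For DUSP1 the set 1 difference minus the set 2 difference was -0.718 (limma interaction, adjusted p = 0.0305 over all genes), and for DUSP2 it was 0.752 (adjusted p = 0.0325). Under the 6 other settings tried, both kept the sign and the call, with adjusted p values up to 0.0392 for DUSP1 and 0.0369 for DUSP2. Both genes had a single probe set, so the choices of probe set among these settings could not alter their differences. Leaving out dim genes and the trended robust variance also left the differences unchanged. In those settings only the call could change, not the sign. The cause was not tested. No array stood apart from the other 3 of its group for any member by Dixon's test (64 groups, 0 past the 95% critical value), after each gene's mean in each array set had been removed. Chance would be expected to mark about 1 in 20 groups.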

How the results depend on the processing

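The calls of DUSP3, DUSP18 and DUSP14 kept their direction and their side of the threshold under 16 of 17 alternatives, the exception being the fit with no block. These alternatives are not all separate checks. The fits without replicate 1 of either group repeat that of array set 2 alone. Each of these genes had a single probe set, so other choices of probe set could not alter its difference. Of the 26 members that were not called, 21 were called under no alternative, and 0 of the 6 called members changed sign. No sign could change with no block, the replicate block, dim genes left out or the trended robust variance, which leave each difference as reported. The signs of 8 uncalled members (DUSP5, DUSP9, DUSP21, DUSP22, DUSP26, DUSP5P1, SPRED3 and SPRY1) changed under 1 or more alternatives. The 5 uncalled members that were called under an alternative were DUSP1, DUSP2 and DUSP29 (array set 2 alone), DUSP7 (dim genes left out, and a trended robust variance) and DUSP11 (a trended robust variance). Without a block 0 members were called (0 MAPK phosphatases, 0 atypical DUSPs, 0 Sprouty or SPRED genes, 0 genes of the pathway lists, 0 higher and 0 lower), and 0 members had an unadjusted p under 0.05. The CDK9 difference was still -1.82 there but did not pass. The array set difference enters the residual of that fit. With the replicate block, in which numbered arrays are paired, 0 MAPK phosphatases, 0 Sprouty or SPRED genes and 14 pathway genes were called, and 1 member was higher. Over all genes 2615 were called in the reported fit, 1688 with the replicate block and 1520 to 3331 when 1 array was left out. Array set 2 alone and the trended robust variance each gave 2 MAPK phosphatases. With dim genes left out, DUSP6, DUSP19 and SPRY4 were not tested, 0 Sprouty or SPRED genes and 0 higher members were called, and 5 members differed between array sets, as did 4 with the trended robust variance. Leaving out each array gave 3 to 8 members called, 3 to 5 lower, 0 to 3 higher, 0 to 2 MAPK phosphatases, 0 to 1 Sprouty or SPRED genes and 14 to 26 pathway genes. The 8 dim members rest on low signals, and detection calls were not used here.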
